A study of Homo sapiens with 36 samples.

Results

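Chromatin at 10 genes of matrix breakdown was described in 2 human lung cell lines: the matrix metalloproteinase genes MMP1, MMP3, MMP7, MMP10, MMP12, MMP13, MMP2 and MMP14, and the inhibitor genes TIMP2 and TIMP3. The genes were chosen by name from the 20033 protein-coding genes of the annotation (GENCODE release 44, build hg38), and every peak within 3 kb of an annotated start site, or within 50 kb of one, was collected from 16 peak lists. Matrix metalloproteinases are secreted or membrane-bound zinc enzymes that cut collagens and other proteins of the extracellular matrix, and tissue inhibitors of metalloproteinases (TIMPs) block them. Several of these genes are textbook targets of AP-1, a dimer of Jun-family and Fos-family proteins that binds the letters TGAGTCA or, on the other strand, TGACTCA. In the lung the enzymes take part in repair, emphysema and tumour invasion.

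The study profiled A549, a lung adenocarcinoma line, and BEAS-2B (B2B), an immortalised bronchial epithelial line, by chromatin immunoprecipitation and sequencing (ChIP-seq). Neither line received a treatment, and each stands for its tissue as a single line, so that tumour origin and differences between 2 cell lines cannot be told apart. The targets in both lines were the Jun-family proteins JunB, Jun and JunD, RNA polymerase II (pol II), the promoter mark H3K4me3, the acetylation mark H3K27ac of active promoters and enhancers, and the Mediator subunit Med1. For the insulator protein CTCF and the cohesin subunit Rad21, B2B lists were used here, and A549 was not analysed. Each of the 16 lists came from 2 replicates that the authors had merged, so no replicate error exists for any value below, no difference was tested, and intervals cover counting error only. A list made over a whole culture also cannot tell a weak signal in every cell from a strong one in few cells.

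The lists held 8563 to 61225 peaks, and the JunB lists differed most in length, with 28068 peaks in A549 and 8563 in B2B. Of the 16 lists, 12 spanned the genome and 4 stopped early: A549 H3K27ac on chromosome 13, both Med1 lists on chromosome 15 and A549 pol II on chromosome 20. A549 H3K27ac therefore covered 6 members, Med1 7 members and A549 pol II 9 members. The read number of the libraries is unknown. The median read pileup of a peak, recovered from the fold enrichment and p-value of each peak, was 18 to 107 reads, and the median local background was 9.86 reads in B2B pol II against 2.36 in A549 pol II, 25.8 against 3.31 for H3K4me3 and 12.1 against 2.26 for H3K27ac. Fold enrichment is the ratio of pileup to local background after a single read is added to both. It is lower at a given pileup where the background is higher, so pileups are given beside it. H3K4me3 peaks lay at 4 of 4 epithelial markers (EPCAM, CDH1, KRT8 and KRT18) in both lines, at 2 of 3 alveolar markers in both (not at SFTPB), at both mesenchymal and both fibroblast markers in both lines, and at 0 of 2 endothelial markers. The basal marker TP63 and the leukocyte marker PTPRC had a peak in A549 alone.

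In all, 6 of the members sit in a row on the long arm of chromosome 11, all on the minus strand. MMP7 (ENSG00000137673.9) lies at chr11:102520508-102530750, MMP10 (ENSG00000166670.10) at chr11:102770502-102780628 and MMP1 (ENSG00000196611.6) at chr11:102789401-102798160. They are followed by MMP3 (ENSG00000149968.12) at chr11:102835801-102843609, MMP12 (ENSG00000262406.3) at chr11:102862736-102874982 and MMP13 (ENSG00000137745.13) at chr11:102942995-102955732. MMP20, MMP27 and MMP8 lie between MMP7 and MMP10. With 50 kb on each side this cluster spans 525 kb. The other 4 members stand alone: MMP2 (ENSG00000087245.13) at chr16:55389700-55506691, MMP14 (ENSG00000157227.14) at chr14:22836560-22849041, TIMP2 (ENSG00000035862.13) at chr17:78852977-78925387 and TIMP3 (ENSG00000100234.12) at chr22:32801705-32863041. MMP2 and TIMP2 have 8 annotated start sites each, and several of the values below belong to a start inside the gene.

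Promoter sequences from RefSeq, build GRCh38.p14, were used for 4 of 10 members (MMP7, MMP10, MMP14 and TIMP3; the others are MMP1, MMP3, MMP12, MMP13, MMP2 and TIMP2). In the last 150 bases before the start, 2.89% of 35116 RefSeq promoters hold TGAGTCA or TGACTCA, 4.54% hold TATAAA and 0.188% hold both, with both strands searched for the AP-1 letters and the gene's own strand for TATAAA. These 150 bases are shown for MMP7, which holds both, and for its neighbour MMP10, which holds TATAAA alone, since these are the members with a Jun-family peak over the start itself. Both are written on the minus strand, 5′ to 3′, with the AP-1 letters and TATAAA in capitals. The MMP7 window is chr11:102530748-102530897 and the MMP10 window chr11:102780629-102780778.
MMP7 promoter: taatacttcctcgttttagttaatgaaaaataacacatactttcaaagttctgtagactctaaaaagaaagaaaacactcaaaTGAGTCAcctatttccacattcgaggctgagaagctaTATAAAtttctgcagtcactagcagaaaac
MMP10 promoter: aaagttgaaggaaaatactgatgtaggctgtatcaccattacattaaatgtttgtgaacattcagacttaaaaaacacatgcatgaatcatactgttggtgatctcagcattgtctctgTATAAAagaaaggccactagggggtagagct
In MMP7 the AP-1 letters are centred 64 bases and TATAAA 27 bases before the RefSeq start. In MMP10 TATAAA is centred 28 bases before the start. The MMP14 and TIMP3 windows hold neither of these letter strings.

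Sequences under 7 Jun summits are shown next, because later results turn on these places. They were picked from the regions named below, mostly among those that hold the AP-1 letters, so their number says nothing of how common the letters are. Each is 101 bases of hg38, plus strand, centred on the summit of the highest Jun peak in the region, with TGAGTCA or TGACTCA in capitals where present. They lie at chr11:102599994-102600094 inside an intron of MMP20, at chr11:102760527-102760627 past the 3′ end of MMP10, at chr11:102950842-102950942 in an intron of MMP13, at chr11:102975082-102975182 before MMP13, at chr16:55471584-55471684 in an intron of MMP2, at chr17:78862155-78862255 in an intron of TIMP2 and at chr17:78933532-78933632 before TIMP2.
MMP20 intron, both lines: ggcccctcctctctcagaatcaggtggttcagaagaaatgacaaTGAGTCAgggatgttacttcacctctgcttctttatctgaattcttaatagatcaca
past MMP10, both lines: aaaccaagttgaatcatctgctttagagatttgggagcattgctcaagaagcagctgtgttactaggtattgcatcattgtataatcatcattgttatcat
MMP13 intron, A549 alone: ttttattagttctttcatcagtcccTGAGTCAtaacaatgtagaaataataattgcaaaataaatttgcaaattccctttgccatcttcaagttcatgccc
before MMP13, B2B alone: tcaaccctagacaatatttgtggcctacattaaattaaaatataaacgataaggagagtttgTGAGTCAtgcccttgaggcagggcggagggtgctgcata
MMP2 intron, both lines: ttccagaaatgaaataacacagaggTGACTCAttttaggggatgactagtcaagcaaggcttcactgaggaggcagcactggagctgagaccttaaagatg
TIMP2 intron, both lines: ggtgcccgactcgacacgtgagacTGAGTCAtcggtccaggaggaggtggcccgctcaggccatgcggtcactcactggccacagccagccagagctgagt
before TIMP2, both lines: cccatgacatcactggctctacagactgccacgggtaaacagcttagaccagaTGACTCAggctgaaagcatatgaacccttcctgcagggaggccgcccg
The window past MMP10 is the one without the letters, and is shown because its Jun peaks were among the strongest of the cluster in both lines.

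The first question was which start sites carried Jun-family peaks. JunB peaks lay within 3 kb of a start of 2 of 10 members in A549 (MMP7 and MMP10) and of 0 in B2B, against 31.1% and 5.28% of all protein-coding genes. With the A549 list cut to the length of the B2B list, 0 members had a JunB peak in either line. Jun peaks lay at 1 member in A549 (MMP10) and at 3 in B2B (MMP3, MMP10 and TIMP2), against 38.2% and 25.4% of genes. JunD peaks lay at 0 members in both lines, against 17.8% and 3.21% of genes. With any of the 3 proteins, 2 members had a peak in A549 and 3 in B2B, against 43.8% and 25.5% of genes, and MMP10 was the member they shared.

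**Figure D1:**
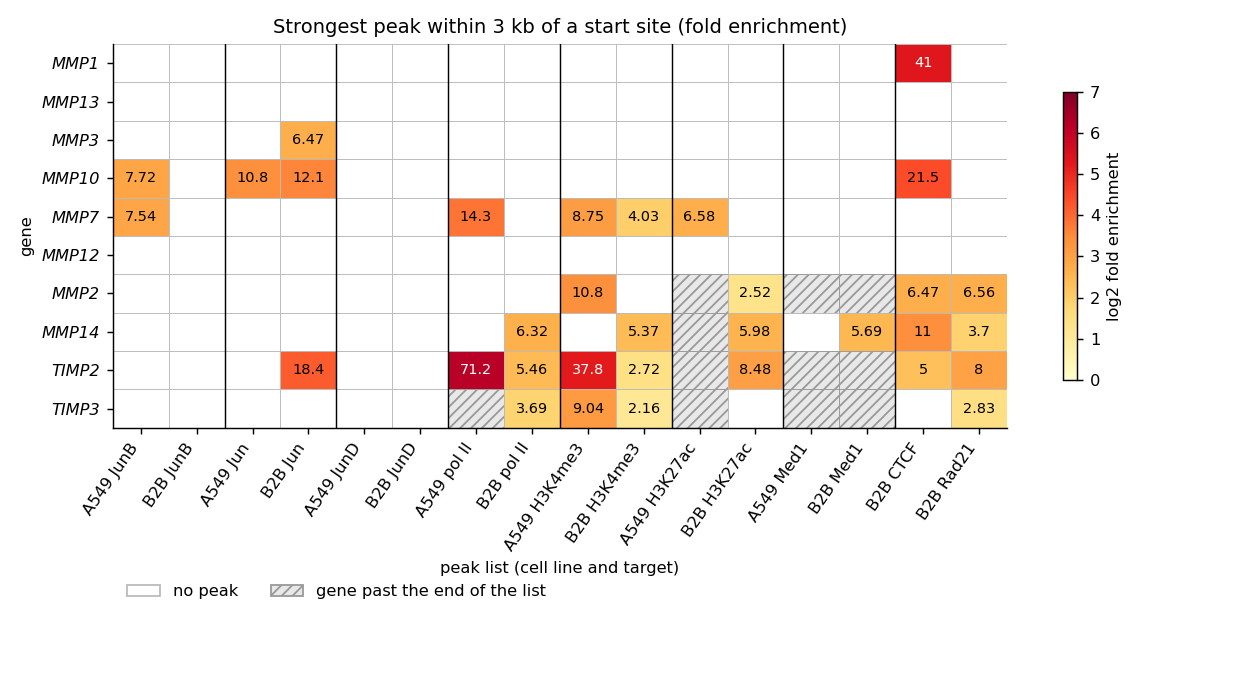
Fold enrichment of the strongest peak within 3 kb of any start site, for 10 genes (vertical axis) in 16 peak lists (horizontal axis). White cells have no peak and hatched cells lie past the end of a list; TIMP2 pol II and H3K4me3 in A549 reached 71.2 and 37.8, the MMP12 and MMP13 rows are empty, and MMP1 has a CTCF peak alone.

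The collagenase genes MMP1 and MMP13, whose enzymes cut fibrillar collagen, carried almost nothing at their starts. MMP1 had a single peak within 3 kb in all 16 lists, a CTCF peak in B2B with a fold enrichment of 41.0 and a pileup of 102 reads. It lay over a start inside the gene, 3404 bases from the start of the gene record. MMP13 had 0 peaks within 3 kb in any list, and its nearest peak was an A549 Jun peak 4.62 kb from a start, in an intron of the gene. The nearest Jun peak to MMP1 lay 11993 bases away in A549 and 11960 bases away in B2B, over the start of MMP10.

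The stromelysin genes MMP3 and MMP10, whose enzymes cut many matrix proteins and activate other metalloproteinases, differed from each other. MMP10 carried Jun over its start in both lines. The Jun fold enrichment was 10.8 in A549 (26 reads over a background of 1.51) and 12.1 in B2B (29 reads over 1.48), so that pileup and background were close in the lines. JunB was added in A549 alone, at 7.72-fold, and CTCF in B2B at 21.5-fold. MMP10 had 0 peaks of pol II, H3K4me3, H3K27ac or Med1 within 3 kb in either line, and the nearest of these was 18.6 kb away, a B2B pol II peak. MMP3 had a B2B Jun peak of 6.47-fold, and its 2824 bases from the start put it just inside the 3 kb limit. The nearest A549 Jun peak was 5.80 kb from MMP3.

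MMP7 encodes matrilysin, a small enzyme that glandular and airway epithelium makes. It was the member of the cluster with marks of an active start, and these were mostly in A549. In A549 its start carried JunB at 7.54-fold (22 reads), pol II at 14.3-fold (37 reads), H3K4me3 at 8.75-fold (29 reads) and H3K27ac at 6.58-fold (14 reads). In B2B it carried H3K4me3 at 4.03-fold (13 reads) and none of the others. The local H3K4me3 background was alike, 2.43 reads in A549 and 2.48 in B2B, so the lower B2B fold goes with a lower pileup here. At a stricter limit of 5 on −log10 q the B2B H3K4me3 peak dropped out. The A549 JunB summit lay 7 bases from the centre of the TGAGTCA shown in the MMP7 promoter, while the pol II and H3K4me3 summits lay 84 and 232 bases from it. Neither Jun nor JunD had a peak there in either line, and the nearest Jun peaks were 21.9 kb away in A549 and 33.4 kb in B2B.

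MMP12 encodes the macrophage metalloelastase, which cuts elastin. It had 0 peaks within 3 kb in the 16 lists, with the nearest Jun peaks 5.28 kb away in A549 and 6.39 kb in B2B, both in introns of the gene. Its nearest H3K4me3 peaks were 66.6 kb away in A549 and 128 kb in B2B.

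Marks of active starts were found at 5 members in all: MMP7, MMP2, MMP14, TIMP2 and TIMP3. Pol II lay at 2 of 9 members in A549 (MMP7 and TIMP2) and at 3 of 10 in B2B (MMP14, TIMP2 and TIMP3), against 69.6% and 50.9% of genes. H3K4me3 lay at 4 of 10 in each line, against 73.7% and 62.7% of genes, but MMP2 was among the 4 in A549 and MMP14 among the 4 in B2B, with MMP7, TIMP2 and TIMP3 in both. H3K27ac lay at 1 of 6 in A549 (MMP7) and at 3 of 10 in B2B (MMP2, MMP14 and TIMP2), against 73.5% and 64.9%. Med1 lay at 0 of 7 in A549 and at 1 of 7 in B2B (MMP14), against 54.7% and 61.1%. In B2B, CTCF lay at 5 of 10 members (MMP1, MMP10, MMP2, MMP14 and TIMP2) and Rad21 at 4 (MMP2, MMP14, TIMP2 and TIMP3), against 50.1% and 67.9% of genes.

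MMP14 encodes a membrane-anchored metalloproteinase that activates the proenzyme of MMP2 at the cell surface. Its start was marked in B2B and bare in A549. In B2B it carried pol II at 6.32-fold (83 reads over a background of 12.3), H3K4me3 at 5.37-fold over 2086 bases (140 reads over 25.3) and H3K27ac at 5.98-fold over 2598 bases (242 reads over 39.6). There were 5 Med1 peaks too, the strongest at 5.69-fold (16 reads over 1.99). In A549 the nearest peaks were H3K4me3 at 5.55 kb, pol II at 6.24 kb and Med1 at 6.43 kb, all at the start of the neighbouring gene MRPL52, a mitochondrial ribosomal protein gene. The A549 H3K27ac list stops before chromosome 14.

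MMP2 encodes gelatinase A, which cuts denatured and basement membrane collagen. In A549 an H3K4me3 peak of 10.8-fold (36 reads over 2.43) covered a start inside the gene record, 89.5 kb from its first start, and B2B had no H3K4me3 peak within 3 kb. B2B had H3K27ac at 2.52-fold (34 reads over 12.9) and CTCF at 6.47-fold near a start at the far end of the gene, 116 kb from the first. It also had 3 Rad21 peaks within 3 kb of a start, the strongest (6.56-fold) over a start 90.8 kb from the first. With the start of the gene record alone, none of these peaks was within 3 kb. Pol II peaks lay just outside the limit in both lines, 3.54 kb away in A549 and 3.61 kb in B2B, and both cover the start of the next gene, LPCAT2.

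TIMP2 encodes an inhibitor that also takes part in MMP2 activation by MMP14, and it had the highest pol II and H3K4me3 fold enrichment of the 10 in A549. In B2B both were higher at MMP14. At its main start pol II reached 71.2-fold in A549 and 5.46-fold in B2B. The pileups were close, 256 reads in A549 and 283 in B2B, and the backgrounds were 2.61 and 51.0 reads. H3K4me3 showed the same arrangement, 37.8-fold in A549 (174 reads over 3.63) and 2.72-fold in B2B (183 reads over 66.5). The fold enrichments therefore separate the lines and the pileups do not, and how much of the fold difference is background was not tested. Since the read number of the libraries is unknown, close pileups do not show that the signal was equal in the lines. B2B had 10 H3K27ac peaks within 3 kb of the TIMP2 starts, the strongest of 8.48-fold, while the A549 list does not reach the gene. The B2B Jun peak counted for TIMP2, at 18.4-fold (108 reads over 4.92), stood at a start inside the gene, 51.3 kb from the main start, and the nearest A549 Jun peak was 8.02 kb from a start.

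TIMP3 encodes the inhibitor that binds to the matrix. Its single start carried H3K4me3 in both lines, at 9.04-fold in A549 (30 reads over 2.43) and at 2.16-fold in B2B (39 reads over 17.5), and the B2B peak fell out at the limit of 5 on −log10 q. Pol II in B2B reached 3.69-fold (93 reads over 24.5), and the A549 list ends before this gene. No Jun-family peak lay within 50 kb of TIMP3 in either line: the nearest Jun peaks were 106 kb away in each.

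The wider loci were then read by Jun-family regions, made by joining all peaks of JunB, Jun and JunD of both lines that overlapped. The 5 loci held 51 regions of the 72011 in the genome, and 354 peaks of all lists, 104 of them Jun-family peaks. Of the 51 regions, 15 were called in A549 alone (29.4%, Wilson 95% interval 18.7 to 43.0), 17 in B2B alone (33.3%, 22.0 to 47.0) and 19 in both lines (37.3%, 25.3 to 51.0). Over the genome these shares were 34.1%, 39.4% and 26.5%, each inside the interval of the members. Jun peaks were dense at the members, 30.1 per Mb in A549 and 33.7 in B2B, where the genome had 11.5 and 14.6. JunB peaks numbered 18.2 per Mb in A549 (genome 9.09) and 2.73 in B2B (genome 2.77), and JunD peaks 3.65 in A549 (genome 3.12) and 6.38 in B2B (genome 2.78). Most other lists were also denser at the members, such as A549 H3K4me3 (21.0, genome 10.6), B2B H3K27ac (46.5, genome 13.1) and B2B CTCF (41.9, genome 19.8). B2B pol II (10.0, genome 8.17) was nearer its genome rate. Over the 5 loci together, then, high density was not particular to Jun. The loci surround gene starts, while the genome rates cover whole chromosomes, and what this contributes was not tested. The loci also differed. In the chromosome 11 cluster Jun had 28.6 peaks per Mb in A549 and 32.4 in B2B. There A549 H3K4me3 (11.4) and H3K27ac (15.2, genome 13.0) were near their genome rates, and B2B H3K27ac (3.81) was below its own. At TIMP2 B2B H3K27ac reached 218 per Mb.

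**Figure D2:**
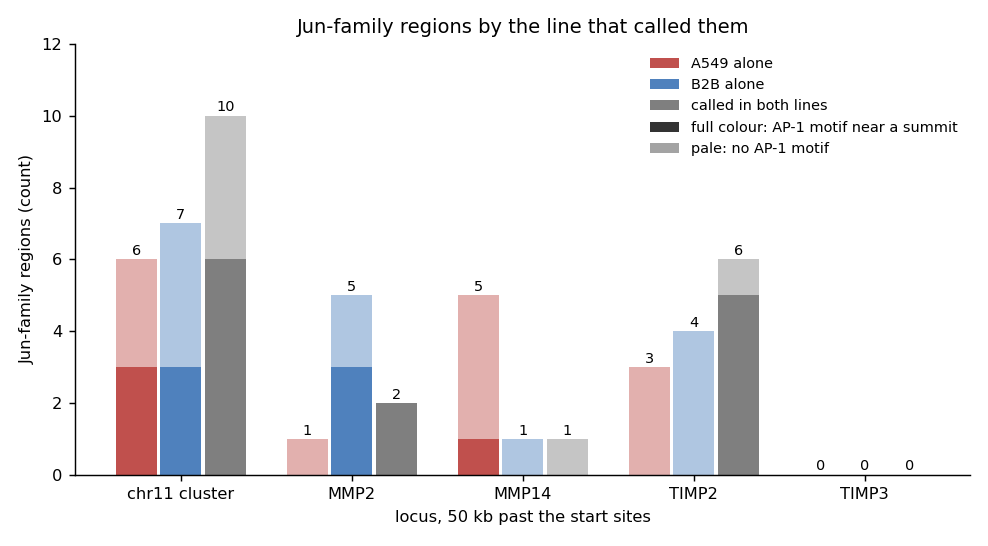
Number of Jun-family regions (vertical axis) at each locus (horizontal axis) by the line that called them, with the part of each bar that has an AP-1 motif within 50 bases of a summit in full colour. The cluster had 6 regions in A549 alone, 7 in B2B alone and 10 in both lines, TIMP2 had 3, 4 and 6, and TIMP3 had none.

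Jun was the protein that nearly every region held. Of the 20 A549 JunB peaks at the members 18 overlapped an A549 Jun peak (90.0%, interval 69.9 to 97.2), against 72.3% of A549 JunB peaks in the genome. The exceptions were the peak at the MMP7 start and a peak 33.2 kb before TIMP2. All 3 B2B JunB peaks, all 4 A549 JunD peaks and all 7 B2B JunD peaks overlapped a Jun peak of their own line. Across lines, 20 of 33 A549 Jun peaks at the members overlapped a B2B Jun peak (60.6%, interval 43.7 to 75.3), against 47.5% in the genome. In the other direction, 20 of 37 B2B Jun peaks overlapped an A549 Jun peak (54.1%, interval 38.4 to 69.0), against 37.3% in the genome.

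The AP-1 letters lay within 50 bases of a summit in 23 of the 51 regions (45.1%, interval 32.3 to 58.6), against 37.1% in the genome. They were found in 13 of the 19 regions called in both lines (68.4%, interval 46.0 to 84.6), in 4 of the 15 called in A549 alone (26.7%, interval 10.9 to 52.0) and in 6 of the 17 called in B2B alone (35.3%, interval 17.3 to 58.7). The genome gave 56.8%, 31.0% and 29.2% for the same classes. The share was highest in the shared regions both at the members and in the genome, and the classes of a single line came in the opposite order, within intervals that overlap. A region counted if the letters lay near any of its summits. Shared regions generally join peaks of more lists, so more sequence was searched in them, and this was not adjusted for.

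**Figure D3:**
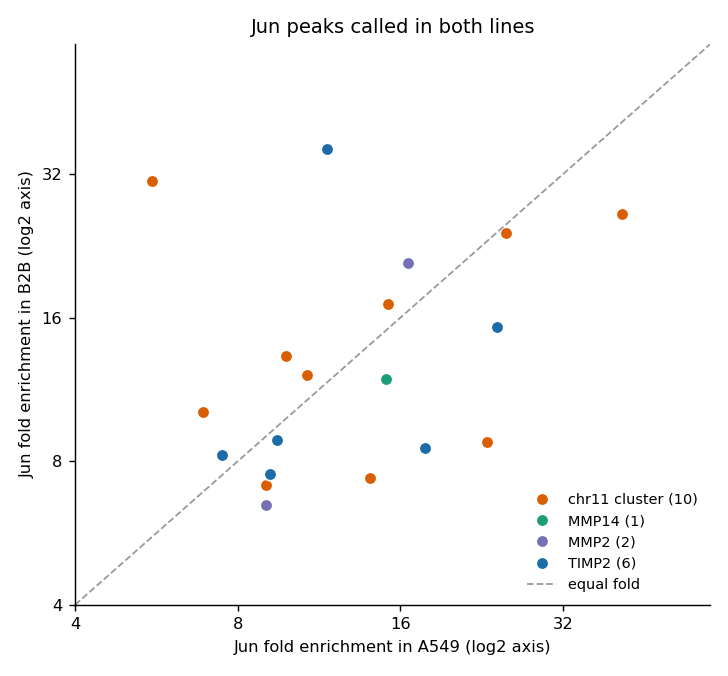
Jun fold enrichment in A549 (horizontal axis, log2) against B2B (vertical axis, log2) at the 19 regions with a Jun peak in both lines, coloured by locus, with a dashed line of equal fold. The points lie on both sides of the line, 11 higher in A549 and 8 higher in B2B, and the region before MMP3 lies farthest from it at 5.55 against 31.0.

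The 19 shared regions were split between the lines in their Jun fold. Their median fold enrichment was 11.7 in A549 and 11.9 in B2B, and the log2 ratio of A549 over B2B had a median of 0.09 and ran from -2.48 to 1.40, with 11 regions higher in A549 and 8 higher in B2B. Over the 16590 such regions of the genome the median log2 ratio was 0.10. The summits of the lines fell within 50 bases of each other in 18 of the 19 regions, and the median distance was 18 bases (genome median 20).

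The chromosome 11 cluster held 23 of the regions: 6 in A549 alone, 7 in B2B alone and 10 in both. With lists of equal length, those in B2B alone numbered 2. Its strongest region stood in an intron of MMP20 at chr11:102599326-102600305, 68.6 kb from the MMP7 start, and was the single one of the cluster called in all 6 Jun-family lists. Jun reached 41.2-fold in A549 and 26.3-fold in B2B, JunB 24.1-fold and 5.77-fold, and JunD 8.11-fold and 8.69-fold. In A549 pol II (32.1-fold), Med1 (7.5-fold) and H3K27ac (19.2-fold at one edge and 15.9-fold just past the other) accompanied it, and in B2B no peak of these overlapped it. The summits of the strongest Jun peaks were 244 bases apart between the lines here, the one pair of the 19 over 50 bases apart.

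The shared region past the 3′ end of MMP10, at chr11:102760281-102760884 and 19.7 kb from its start, had Jun at 25.1-fold in A549 and 24.0-fold in B2B. JunB was also called there in A549 (6.56-fold) and JunD in B2B (4.52-fold), and no list outside the Jun family overlapped it. Chosen after its values were seen, the region before MMP3 at chr11:102849321-102849781, 5.71 kb from its start, was the one most in favour of B2B: Jun reached 31.0-fold there in B2B and 5.55-fold in A549, and JunD was called in B2B alone at 4.95-fold.

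**Figure D4:**
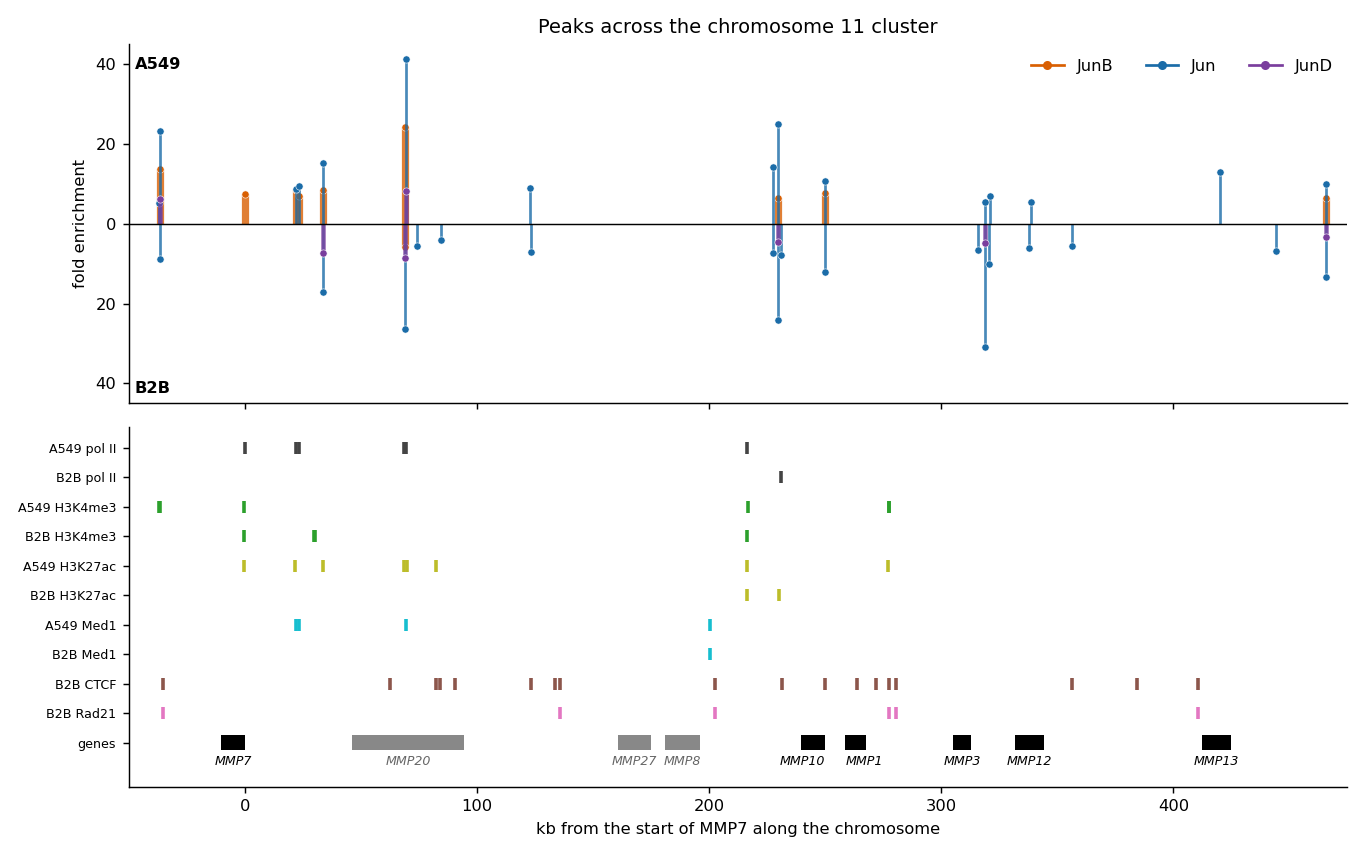
Peaks across the chromosome 11 cluster by distance from the MMP7 start in kb (horizontal axis). The upper panel gives Jun-family fold enrichment (vertical axis) with A549 above and B2B below the line, and the lower panel marks the peaks of the other lists and the genes, members in black; pol II and H3K27ac peaks of A549 lie at the MMP7 start and the MMP20 intron, while the stretch from MMP3 to MMP13 has Jun-family and CTCF peaks alone, apart from 1 Rad21 peak near MMP13.

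The regions called in A549 alone were led by a pair before MMP7, at chr11:102552590-102552938 and chr11:102554003-102554233, 21.8 and 23.3 kb from its start. Both held JunB (8.53-fold and 6.89-fold) and Jun (8.76-fold and 9.52-fold), and pol II and Med1 of A549 overlapped both. Next came a Jun peak of 13.03-fold in an intron of MMP13, at chr11:102950763-102951082, with no other list beside it. Those called in B2B alone were weaker: Jun peaks of 7.77-fold past the 3′ end of MMP10 (chr11:102761680-102761916), 6.93-fold before MMP13 (chr11:102975025-102975234) and 6.47-fold before MMP3 (chr11:102846433-102846641). B2B pol II and CTCF overlapped the first of these.

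The marks around the cluster differed in number more than the peaks of Jun itself did, but not more than those of JunB. Across the cluster there were 15 Jun peaks in A549 against 17 in B2B. The peaks of pol II numbered 6 and 1, of H3K27ac 8 and 2, of Med1 4 and 1 and of H3K4me3 6 and 4. Counts for the other Jun-family proteins, A549 first, were 9 and 1 for JunB and 2 and 5 for JunD. The whole JunB lists also differ in length, at 28068 and 8563 peaks. The genome rates of H3K27ac were 13.0 and 13.1 per Mb in A549 and B2B, and those of the cluster 15.2 and 3.81. For pol II the genome rates were 16.5 and 8.17 per Mb and those of the cluster 11.4 and 1.90. Away from coding starts by over 3 kb, 2 places in the cluster had peaks of at least 3 of the 4 marks of a line joined by overlap. In the MMP20 intron described above pol II, H3K27ac and Med1 of A549 overlapped the Jun-family region, but not one another as a single run. The first of the 2 places, at chr11:102552072-102553074 before MMP7, held pol II (17.7-fold), H3K27ac (4.31-fold) and Med1 (7.16-fold) in A549 and nothing of these in B2B. The other, at chr11:102746877-102747588 between MMP8 and MMP10, held pol II (19.6-fold), H3K4me3 (9.33-fold) and H3K27ac (21.4-fold) in A549, and H3K4me3 (2.82-fold) and H3K27ac (4.42-fold) in B2B. It lay 33.0 kb from the MMP10 start.

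CTCF in B2B had 18 peaks in the cluster, 34.3 per Mb against 19.8 in the genome. Rad21 had 6, at 11.4 per Mb against 12.6. All 6 Rad21 peaks overlapped CTCF, against 57.0% of Rad21 peaks in the genome. Of the CTCF peaks in the cluster, 33.3% overlapped Rad21, against 36.3% in the genome. The strongest CTCF peak was the 41.0-fold peak inside MMP1. Close to it in strength stood a peak of 40.8-fold before MMP8 (chr11:102733320-102733634) and a peak of 36.2-fold at chr11:102941045-102941326, near the 3′ end of MMP13, both overlapped by Rad21.

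At the other 4 members 28 regions were found, 9 in A549 alone (3 within 25 kb), 10 in B2B alone and 9 in both lines, of which MMP2 had 8, MMP14 7, TIMP2 13 and TIMP3 0. An intronic region of MMP2 at chr16:55471467-55471887 was called in both lines. It had Jun at 16.5-fold in A549 and 20.8-fold in B2B, with JunB in A549 (9.18-fold) and JunD in B2B (8.34-fold). In B2B alone 5 of the 8 MMP2 regions were called, led by Jun at 21.8-fold at chr16:55499918-55500384, where pol II, H3K27ac and CTCF peaks of B2B overlapped, and followed by an 8.88-fold peak in LPCAT2 (chr16:55542777-55543005). One was called in A549 alone, a Jun peak of 4.99-fold at chr16:55472125-55472319.

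Around MMP14 the balance was the other way, with 5 of 7 regions in A549 alone. These lay at the genes beside it. Jun reached 15.02-fold and JunB 6.89-fold at chr14:22820782-22821072, over a start of the amino acid transporter gene SLC7A7, and Jun 10.6-fold, JunB 4.87-fold and JunD 5.31-fold at chr14:22871223-22871829, over the start of LRP10. The shared region at chr14:22824856-22825289, 11.3 kb from the MMP14 start, had Jun at 15.02-fold in A549 and 11.9-fold in B2B. A single region was called in B2B alone, a 7.39-fold Jun peak in SLC7A7 at chr14:22791362-22791566.

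TIMP2 had 6 shared regions, the most outside the cluster, and 5 of them held the AP-1 letters. The region in its intron at chr17:78861941-78862779, 11.3 kb from a start, had Jun at 36.2-fold in B2B and 11.7-fold in A549, whereas JunB was at 18.7-fold in A549 and 9.03-fold in B2B. Pol II overlapped it in both lines. The region before the gene at chr17:78933410-78933786 had Jun at 24.1-fold in A549 and 15.3-fold in B2B, and JunB in A549 alone at 10.7-fold. Regions called in A549 alone included one over the start of USP36 (chr17:78840550-78841398, Jun 24.3-fold) and one in LGALS3BP (chr17:78975028-78975295, Jun 11.01-fold), and the strongest pair of the 4 in B2B alone stood near an inner start of TIMP2, with Jun at 18.4-fold (chr17:78873465-78873899) and 4.78-fold (chr17:78872544-78872699). None of the 7 TIMP2 regions of a single line held the letters.

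A list of 20 further genes held the rest of the family and related genes, of which 5 had a Jun-family peak within 3 kb in A549 and 7 in B2B, against the 43.8% and 25.5% of all genes. MMP19, TIMP1, TIMP4 and FURIN, the protease that activates several of these enzymes, had one in both lines. BSG had one in A549 alone (Jun, 6.59-fold), and MMP20, MMP11 and MMP28 had one in B2B alone (Jun, 5.54-fold, 7.07-fold and 8.88-fold). JunB lay at 4 in A549 (MMP19, TIMP1, TIMP4 and FURIN) and at 1 in B2B (MMP19), against 31.1% and 5.28% of all genes. JunD lay at 0 in both lines, against 17.8% and 3.21%. Pol II lay at 9 of 16 in A549 and 5 of 20 in B2B, against 69.6% and 50.9%. H3K4me3 lay at 13 and 11 of 20, against 73.7% and 62.7%, and H3K27ac at 4 of 11 and 11 of 20, against 73.5% and 64.9%. Med1 lay at 0 and 4 of 11, against 54.7% and 61.1%. Pol II was called in A549 alone at MMP15, MMP17, MMP23B, MMP25, MMP28 and TIMP4 and in B2B alone at MMP16, H3K4me3 in A549 alone at MMP28 and TIMP4, H3K27ac in A549 alone at TIMP4 and in B2B alone at MMP19 and MMP23B, and Med1 in B2B alone at MMP16, MMP17, MMP19 and RECK, counting genes that both lists reach.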

How the data were processed

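The 36 samples form 18 groups of 2 replicates, and 4 of them are inputs, which have no file used here. Per the labels and the study's methods, the authors aligned reads to hg38 with Bowtie2 2.4.4, removed duplicates, merged replicates, scaled the merged libraries (CPM, SAMtools 1.13) and ran MACS2 2.2.7.1 on them; the options and the control used are not given in the sources used here. The deposited lists hold, for each peak, fold enrichment over local background (a ratio) and −log10 p-values and −log10 q-values, with q at or below 0.01, and 0 columns of unmapped samples were met. Because peaks were called on merged replicates, 1 list stands for a line and target.

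The lists were read with Python 3.11.15, pandas 2.3.3, NumPy 2.4.6, SciPy 1.17.1, pysam 0.24.0 and Matplotlib 3.10.9. Peaks were taken within 3 kb of any GENCODE 44 start, and within 50 kb for loci. Jun-family peaks sharing at least 1 bp were joined. Pileup and background were solved from each peak's fold and p-value with a Poisson tail, and matched within 0.01 for 100% of 1500 sampled peaks a list; merging, distances and this solver were tested on simulated data. No test was run, since no replicate values exist; intervals are Wilson 95% intervals. Alternatives were a limit of 5 on −log10 q, 1 and 10 kb, the gene record's start, loci of 25 and 100 kb, 50% reciprocal overlap, a motif flank of 100 bp, and lists of equal length. All 10 members are named; regions named are the top 3 of each class in the cluster and the top 2 elsewhere by summed fold enrichment, and other family genes are named where lines differ. A pair of these regions is not reported here. Members and lists were chosen with earlier results of these data known.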

Additional observations from a re-analysis of the deposited data

How the results depend on the processing

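Of 109 values recomputed for 22 results, 96 stayed within 1.5 times the reported count or inside the reported interval. Counts of members moved mostly with distance: within 10 kb, JunB peaks lay at 4 members in A549 and 1 in B2B, Jun at 6 and 5, JunD at 2 in B2B, pol II at 4 in A549, H3K27ac at 2 in A549 and Med1 at 1 in A549. The shares of all genes were computed within 3 kb and with the lists as reported alone. They cannot be set against the counts of these alternatives. With lists of equal length JunB lay at 0 members in A549, H3K27ac at 0 in B2B, since both lists then end before the members that had it, and 2 regions of the cluster were called in B2B alone. At a −log10 q of 5 or more H3K4me3 lay at 2 members in B2B. Within 25 kb, 3 regions at the other 4 members were called in A549 alone. The share of regions in both lines and the share with the AP-1 letters stayed inside their intervals under each alternative run.

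No paired analysis was possible because replicates were merged before peaks were called, and for that reason leaving out a replicate was not possible. Differences between the lines have no replicate check. The read depth is unknown, so the absence of a peak means that none was called at this depth. The 4 lists that stop early leave H3K27ac of A549 unread at MMP2, MMP14, TIMP2 and TIMP3.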
